A study of Oryctolagus cuniculus with 27 samples.

Results

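Left ventricular myocardium of rabbits on a diet with cholesterol and vitamin D2 was compared with that of rabbits on chow, across all genes of the myocardium table. The members were the 6 libraries whose titles name myocardium, 3 experimental and 3 control, out of 27 libraries in the series; the others are 16 of aortic valve cusp and 5 of ascending aorta. The diet group was wild-type New Zealand males given 1% cholesterol plus 3500 IU of ergocalciferol, and the control group was wild-type males of that breed on normal chow. The labels give no age and no time on diet for the myocardium, but the animal numbers that the library names carry tie the 3 diet hearts to animals whose valves were sampled at 7 weeks. Each library came from another animal, so the p-values below measure the spread between animals. Per the design text the tissue was sequenced to find muscle transcripts that could contaminate the valve samples.

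The ventricular wall consists mostly of cardiomyocytes by volume, with fibroblasts, capillary endothelium, mural cells and resident macrophages between them. When the wall is loaded or injured, cardiomyocytes return in part to a fetal pattern, with more natriuretic peptide and skeletal-type actin, and fibroblasts change the collagens and matricellular proteins they secrete. Dietary cholesterol acts on cells mainly through lower SREBP-2 activity, which controls sterol synthesis and uptake, and through LXR, which controls sterol efflux. Ergocalciferol is converted to a hormone that acts through the vitamin D receptor and raises calcium and phosphate uptake.

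The libraries held 14171027 to 17322373 counts on diet and 13954438 to 17019002 in controls. The tissue label was borne out by its markers: the 24 ventricular cardiomyocyte genes in the table took 11.1% to 12.9% of all counts on diet and 9.43% to 13.1% in controls, led by MYH7, the slow ventricular myosin, at 50560 to 66330 CPM on diet and 37110 to 62540 CPM in controls (CPM, a gene's count scaled to its library's total). The 8 skeletal muscle genes in the table summed to at most 1.19 CPM in any of the 6 libraries. A pair of libraries stood apart. Diet replicate 1 had 7.54% of its counts on RN18S, the 18S ribosomal RNA, and 7.19% on LOC127485862, which RefSeq lists as a pseudogene, against at most 2.22% and 1.86% in any other library. Control replicate 3 correlated with the other libraries at 0.911 to 0.938 (Pearson's r of log2 CPM over genes), while all other pairs reached 0.956 to 0.976, and it had the most smooth muscle RNA, with 669 CPM of MYH11, smooth muscle myosin, against 125 to 279 CPM on diet and 133 and 150.1 CPM in the other controls. Where a named gene's call in myocardium turned on either library, its value without that library is given.

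Diet changed few genes by the test used here. Of 14151 genes tested with edgeR's quasi-likelihood test, 12 passed a Benjamini-Hochberg adjusted p of 0.05, which is 0.0848%: 6 were higher and 6 lower on diet (0.0424% each). They included IGFBP3, an insulin-like growth factor carrier, and LRP2, the endocytic receptor megalin, which rose, and PDGFRL, a secreted PDGF receptor-like protein, and DNASE1, a secreted nuclease, which fell; the other 8 carry only LOC numbers in the table. The count depended on single animals: without diet replicate 1, the library with much ribosomal RNA, 1 gene passed, without diet replicates 2 or 3 it was 6 or 4, and without control replicates 1, 2 or 3 it was 36, 6 or 13. DESeq2 called 302 genes, 151 in each direction (0.955% of 15807 each), with all 12 among them. At an unadjusted p under 0.05 stood 1252 genes, 568 higher (4.01%) and 684 lower (4.83%), together 8.85%. All 12 called genes had groups that did not overlap in CPM, which is no further support, since the same values gave the calls. LRP2, LOC100347688, LOC127482911, LOC127487650 and LOC127492764 would not have passed the count filter on the control hearts alone. LOC103346281 and DNASE1 would not have passed it on the diet hearts alone. Over all genes 529 (3.74%) had every diet heart above every control and 1616 (11.4%) had every diet heart below. CPM uses library totals alone, a scale that leans to lower values on diet. With library totals the median log2 fold change of all genes was -0.139, against -0.0101 with the scaling of the test (TMM).

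IGFBP3 was the most abundant of the 12. It had 248, 179 and 269 CPM in the diet hearts, against 29.9, 21.9 and 17.1 CPM in control hearts, a mean of 232 ± 47 (SD, n = 3) against 23.0 ± 6.5 CPM (SD, n = 3). The lowest diet heart lay well above the highest control, and the log2 fold change was 3.46 ± 0.35 (SE, edgeR adjusted p = 0.0196). LRP2, which takes up the vitamin D carrier protein and other ligands in the kidney, had 2.89, 5.29 and 6.66 CPM on diet, against 0.287, 0.269 and 0.353 CPM in controls, a log2 fold change of 4.10 ± 0.42 (edgeR adjusted p = 0.0196). It was scarce in control hearts and present in every diet heart. Without diet replicate 1 the edgeR adjusted p was 0.0926 for IGFBP3 and 0.0772 for LRP2. IGFBP3 also lost the call without diet replicate 3 (0.116) or control replicate 2 (0.0708), and LRP2 without any animal but control replicate 1 (up to 0.13).

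PDGFRL and DNASE1 moved the other way. PDGFRL had 3.64, 3.95 and 3.24 CPM on diet, against 11.4, 12.3 and 15.3 CPM in controls (log2 fold change -1.71 ± 0.21, edgeR adjusted p = 0.0475). DNASE1 had 0.52, 0.706 and 0.871 CPM on diet, against 4.66, 7.79 and 6.82 CPM in controls (-3.07 ± 0.35, edgeR adjusted p = 0.0295). In both genes the 2 groups did not overlap. PDGFRL lost the call without any 1 of the 6 animals (edgeR adjusted p = 0.0594 to 0.271), and DNASE1 lost it without any but control replicate 1 (edgeR adjusted p = 0.0609 to 0.13).

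**Figure D1:**
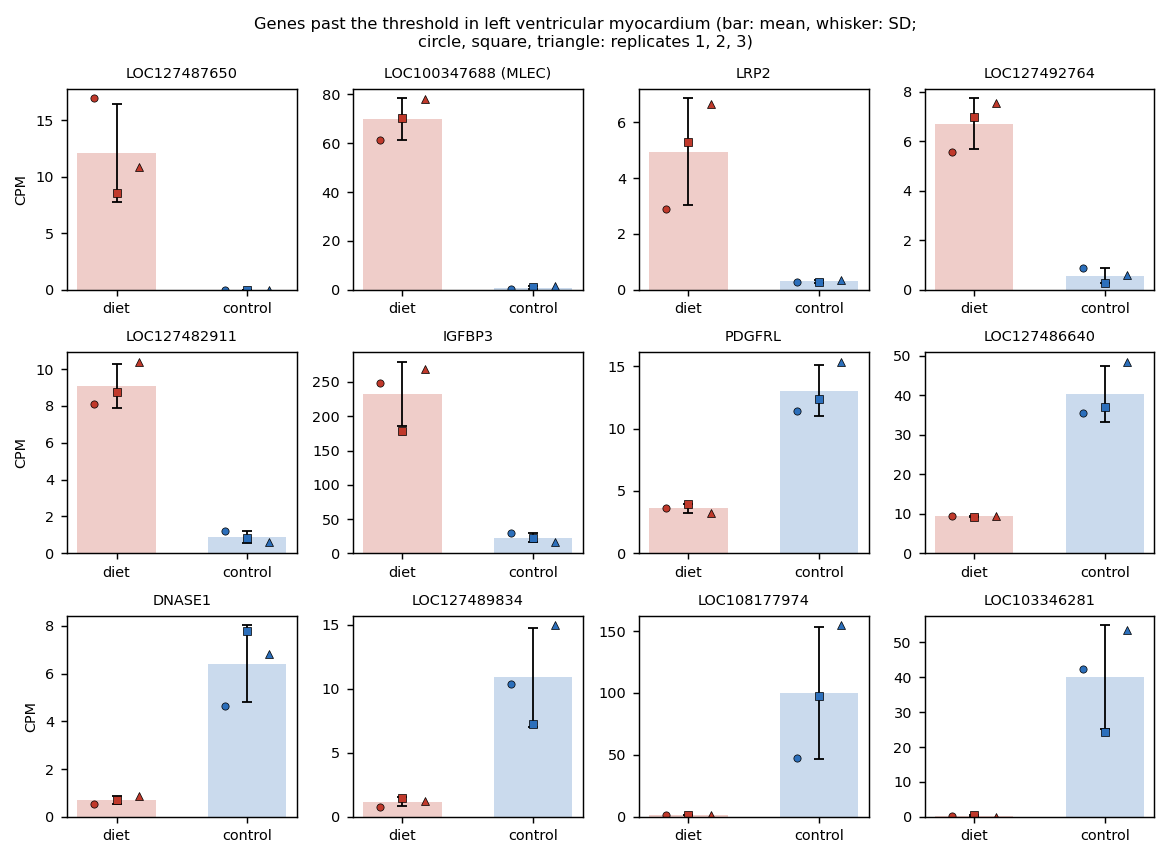
CPM (linear axes from 0) of the 12 genes past the threshold, with diet on the left and control on the right of each panel; bars are means, whiskers SD and symbols the 3 replicates. In every panel the 3 diet hearts and the 3 control hearts do not overlap, from LOC127487650, at 0 in all controls, to LOC103346281, under 0.5 CPM in all diet hearts.

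The 8 genes without a symbol ranged from one that no control heart held to one that differed about as much as PDGFRL. LOC100347688, which RefSeq pairs with the symbol MLEC, a carbohydrate-binding protein of the endoplasmic reticulum, had 61.2, 70.1 and 78.2 CPM on diet, against 0.413, 0.995 and 1.37 CPM in controls (log2 fold change 6.34 ± 0.34, edgeR adjusted p = 0.000848). It was the only 1 of the 12 that passed under all 15 alternatives tried. LOC127487650, which the RefSeq table used here does not hold, had 16.9, 8.57 and 10.8 CPM on diet and no count in any control heart. Its diet mean of 12.1 CPM was at least 56.4-fold higher than 3 counts in a control library, the limit used for a count of 0. On chow it was present in other tissues, at 17.6 to 20.9 CPM in control aortas and 1.15 to 20.7 CPM in control valves. The valves of the animals of control replicates 1 and 2 had 1.15 and 1.77 CPM. The 7-week valves had 10.5 to 28.4 CPM.

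LOC108177974, listed by RefSeq as protein coding, had 1.37, 1.09 and 1.22 CPM on diet, against 47.7, 97.5 and 154.6 CPM in controls (-6.15 ± 0.46). LOC103346281, a long non-coding RNA, had 0.231, 0.495 and 0.0622 CPM on diet, against 42.3, 24.2 and 53.6 CPM in controls (-7.11 ± 0.53). Without diet replicate 1 neither passed (edgeR adjusted p = 0.0772 for LOC108177974 and 0.0788 for LOC103346281). The gap between the groups in these 2 genes was wider than the whole range within either group on the log scale. The long non-coding LOC127482911 (3.50 ± 0.36) and the gene LOC127492764 (3.66 ± 0.42) were higher on diet, at 5.57 to 10.4 CPM against 0.259 to 1.22 CPM in controls, and LOC127486640 (-1.96 ± 0.19) and LOC127489834 (-3.07 ± 0.32) were lower, at 0.796 to 9.46 CPM against 7.29 to 48.5 CPM in controls. These 4 and LOC127487650 also lost the call without diet replicate 1 (edgeR adjusted p = 0.0772 to 0.129), and without control replicate 3 so did LOC127487650 (0.0572) and LOC127492764 (0.0844). Without diet replicate 3 all of these lost it (edgeR adjusted p = 0.116 to 0.171), and without diet replicate 2 all but LOC127487650 (0.0861 to 0.0981). Without control replicate 2, LOC127486640, LOC127482911 and LOC127492764 lost it (edgeR adjusted p = 0.0515 to 0.068). LOC127492764, LOC127486640 and LOC127489834 are not in the RefSeq table used here, and whether near-identical copies share reads with any of the 8 was not tested.

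Valves of the same animals were in the series. The valves of the 3 diet animals had 4.24, 1.64 and 2.13 CPM of LOC103346281 (animals of diet replicates 1, 2 and 3), like their hearts, while the fourth 7-week valve, from an animal with no myocardium library, had 48.55 CPM and control valves had 33.2 to 80.4 CPM. Of the 4 control valves, 3 are titled 7 weeks and 1 is titled 2 weeks. LOC127489834 repeated this, with 0 to 0.72 CPM in the valves of the 3 animals, 8.53 CPM in the fourth 7-week valve and 7.96 to 14.5 CPM in control valves. LOC127486640 had 7.38 to 11.2 CPM in the valves of the 3 animals and 39.1 CPM in the fourth, against 13.04 CPM in the 2-week control valve and 32.1 to 47.6 CPM in the 7-week control valves.

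These 3 genes were thus low in both tissues of the 3 animals and not in the fourth 7-week valve. Low levels were not particular to the 3 animals: among the 8 valves of other animals at 2 and 4 weeks of diet, LOC103346281 had 3.09 CPM in 1 and 6.75 CPM in another, LOC127489834 had 0.765 CPM in 1, and LOC127486640 had 9.70, 11.3 and 12.1 CPM in 3. The 2 diet aortas, from animals without a myocardium library, had 41.5 and 46.3 CPM of LOC103346281, against 7.82 to 50.6 CPM in control aortas. They had 8.61 and 10.8 CPM of LOC127489834, against 2.43 to 8.40 CPM in control aortas, and 46.6 and 50.2 CPM of LOC127486640, against 51.04 to 70.3 CPM in control aortas, so the last was slightly lower in diet aortas and LOC127489834 slightly higher. LOC100347688 ran from 7.77 to 120.6 CPM in the 4 7-week valves and from 0.439 (the 2-week control) to 22.2 CPM in the 4 control valves, so it varied within both groups there. Heart and valve of 1 animal could differ. The animal of diet replicate 2 had 70.1 CPM in the heart and 7.77 CPM in the valve, while the valves of diet replicates 1 and 3 had 120.6 and 87.1 CPM. The animals of control replicates 1 and 2 had 0.413 and 0.995 CPM in the heart and 22.2 and 12.7 CPM in the valve.

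IGFBP3, LRP2 and DNASE1 behaved otherwise. IGFBP3 had 149.6 to 192.5 CPM in the 7-week valves of the 3 animals and 78.9 CPM in the fourth, against 14.4 to 88.2 CPM in control valves. LRP2 had 9.59 to 13.3 CPM in the valves of the 3 animals and 6.36 CPM in the fourth, above all 4 control valves, at 0.592 to 4.27 CPM. DNASE1 had 0.118 to 0.606 CPM in all 4 7-week valves, against 0.576 to 2.81 CPM in control valves. LOC108177974 had 8.015 to 10.1 CPM in all 4 7-week valves, against 194.6 to 287 CPM in control valves. The fourth animal thus lay outside the control valves, on the side of the diet hearts, for LRP2, LOC108177974 and DNASE1 (0.464 CPM), but not for IGFBP3; for DNASE1, 1 of the other 3 valves lay within the control range.

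**Figure D2:**
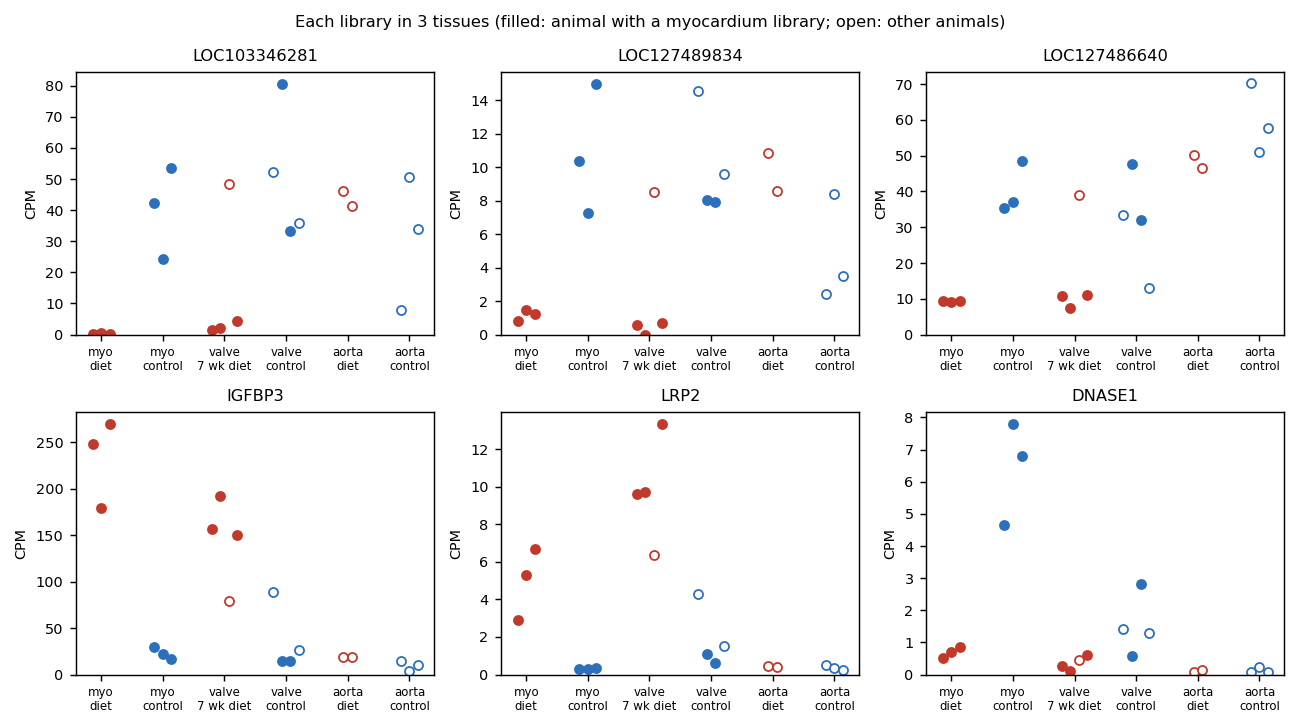
CPM of 6 of the 12 genes in each library of myocardium (myo), 7-week and control valve and aorta, diet left of control in each tissue; filled circles are animals with a myocardium library, open circles other animals. The open circle among the 7-week valves stands with the controls for the 3 LOC genes (48.55, 8.53 and 39.1 CPM), but above all controls for LRP2 (6.36 CPM).

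Beyond the 12, the genes with a symbol, a mean of at least 5 CPM and the lowest p-values are given without a call. PCDH17, a protocadherin, stood at 5.66, 8.40 and 7.16 CPM on diet and 37.4, 20.9 and 34.7 CPM in controls (log2 fold change -2.01 ± 0.26, edgeR adjusted p = 0.0544). ANGPTL7, a secreted angiopoietin-like protein, stood at -2.64 ± 0.37, PCYOX1L at -1.63 ± 0.23, CES1, a carboxylesterase, at -1.95 ± 0.30 and KIT, the stem cell factor receptor, at -1.76 ± 0.27. PRND, the prion-like protein doppel, stood at 17.8, 9.60 and 89.6 CPM on diet and 0.143, 0.0671 and 0.353 CPM in controls (7.73 ± 1.10, edgeR adjusted p = 0.0798), with every diet heart far above every control but a wide spread within the diet group. PRND would not have passed the count filter on the control hearts alone. PCOLCE2, an enhancer of procollagen cleavage, stood at 1.29 ± 0.19, and SLCO2A1, a prostaglandin transporter, at 2.02 ± 0.32. IGFBP3, PDGFRL, COL3A1 and FKBP5 complete the 12 genes of this choice. Without control replicate 3, ANGPTL7 (-2.93, edgeR adjusted p = 0.0339) and KIT (-1.95, edgeR adjusted p = 0.0493) passed the threshold.

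The gene groups below are described by counts and medians beside the same for all genes, since no list had more than 2 members past the adjusted threshold. The median log2 fold change of all 14151 genes was -0.01, and 48.8% were above 0. At an unadjusted p under 0.05 in edgeR, 4.01% of all genes were higher and 4.83% lower. DESeq2 called 0.955% of its genes in each direction. Every list below is to be read beside these shares. Of 46 lists, 44 had members tested, with 787 genes in all. The largest positive median among lists with 10 or more tested members was that of the fetal and stress genes, at 1.12, and the largest negative was that of the interferon-stimulated genes, at -1.17. Members with few counts in 1 group could pass the count filter through the other group alone. In bulk tissue, fewer cells of a type and less RNA per cell cannot be told apart.

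**Figure D3:**
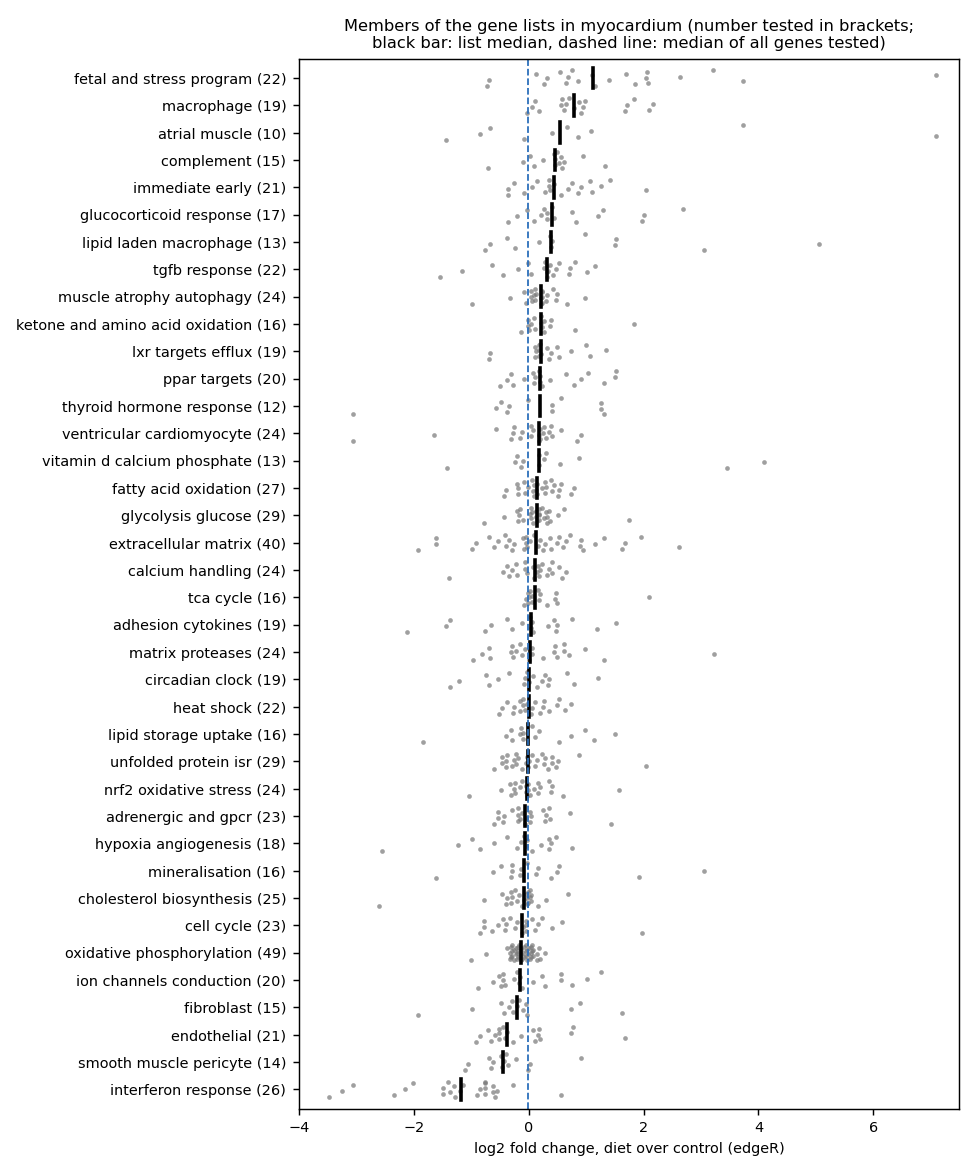
Log2 fold change (diet over control) of each tested member of the lists with 10 or more members tested, 1 dot per gene, with the list median as a black bar and the median of all genes (-0.01) as a dashed line. The fetal and stress genes (median 1.12) and macrophage genes (0.79) lie farthest to the right and the interferon-stimulated genes (-1.17) farthest to the left.

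The cardiac stress and fetal genes stood higher on diet almost throughout. Of 22 tested, 20 had a positive log2 fold change and 11 an unadjusted p under 0.05 in that direction (4.01% of all genes), none in the other. In edgeR 0 passed the adjusted threshold, against 8 in DESeq2, all higher (0.955% of all genes). NPPB, B-type natriuretic peptide and a standard marker of wall stress, stood at 2003, 1387 and 2702 CPM on diet and 442, 208 and 48.8 CPM in controls (3.20 ± 0.77, edgeR adjusted p = 0.22). NPPA, atrial natriuretic peptide, stood at 3.87, 92.1 and 31.2 CPM on diet and 0.215, 0.671 and 0.0588 CPM in controls (7.09 ± 1.24, edgeR adjusted p = 0.107). In both peptides every diet heart exceeded every control, and the spread within a group was itself 10-fold or more in NPPA. NPPA would not have passed the count filter on the control hearts alone.

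ACTA1, skeletal alpha-actin, which the fetal heart also uses, was even among diet hearts, at 4299, 4302 and 4067 CPM, against 1545, 1162 and 543 CPM in controls (2.06 ± 0.45, edgeR adjusted p = 0.177). FHL1, a stress-responsive LIM protein of the sarcomere, stood at 1072, 1913 and 1502 CPM on diet and 774, 652 and 359 CPM in controls (1.40 ± 0.38). KLHL40, a stabiliser of thin filament proteins, stood at 2.05 ± 0.58, TNNI1, the slow skeletal and fetal troponin I, at 2.64 ± 0.58, NPR3, the natriuretic peptide clearance receptor, at 2.09 ± 0.52, and CCN2, connective tissue growth factor, at 1.85 ± 0.38. Diet hearts lay above all controls in each of these. FHL1, KLHL40, TNNI1, NPR3 and CCN2 were named for an unadjusted p under 0.01, so their gap is no further support. Of the 22 tested, 10 had every diet heart above every control (3.74% of all genes). Members of the same list near 0 included ANKRD1, a cardiac ankyrin repeat protein, at 0.13 ± 0.37, and MYH7, the slow myosin, at 0.27 ± 0.42. Of the list, 2 members were below 0, the lowest at -0.73.

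Control replicate 3 was the lowest control for NPPB, ACTA1 and FHL1. Without it the list median was 0.77, with 20 of 22 members above 0, and without diet replicate 1 it was 1.14.

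The contractile genes themselves held no comparable shift. Of 24 ventricular cardiomyocyte genes tested, 16 were above 0 with a median of 0.18, which was -0.05 without control replicate 3, and 1 was higher and 2 lower at an unadjusted p under 0.05, and 0 passed the adjusted threshold in edgeR or DESeq2. MYH6, the fast alpha-myosin, stood at 74.9, 299 and 136 CPM on diet and 228, 3075 and 1110 CPM in controls (-3.06 ± 0.88, edgeR adjusted p = 0.302). The control hearts spanned more than 10-fold in MYH6, and the lowest of them lay within the diet range. The calcium cycling genes had a median of 0.12 over 24 tested: ATP2A2, the sarcoplasmic calcium pump, stood at -0.38 ± 0.41, its inhibitor PLN at 0.23 ± 0.54 and the release channel RYR2 at -0.06 ± 0.38, and the sign of PLN and RYR2 turned when single animals were left out.

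Among atrial genes, NPPA stood with MYL4, the atrial and fetal essential light chain, at 6.99, 26.9 and 1.31 CPM on diet and 1.505, 1.007 and 0.235 CPM in controls (3.73 ± 1.05, edgeR adjusted p = 0.293), where the groups overlapped. KCNA5, an atrial potassium channel, stood the other way, at 14.3, 12.8 and 11.2 CPM on diet and 39.5, 25.1 and 51.8 CPM in controls (-1.44 ± 0.27, edgeR adjusted p = 0.125). The 13 atrial genes in the table summed to 644 to 1071 CPM on diet and 470 to 836 CPM in controls. BMP10, an atrial marker, was at 0 in all 6 libraries. SLN, of the same list, did not pass the count filter. It had 0.404, 5.58 and 5.10 CPM on diet and 0.0671 to 0.176 CPM in controls. The part of admixed atrial tissue in these values was not tested.

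**Figure D4:**
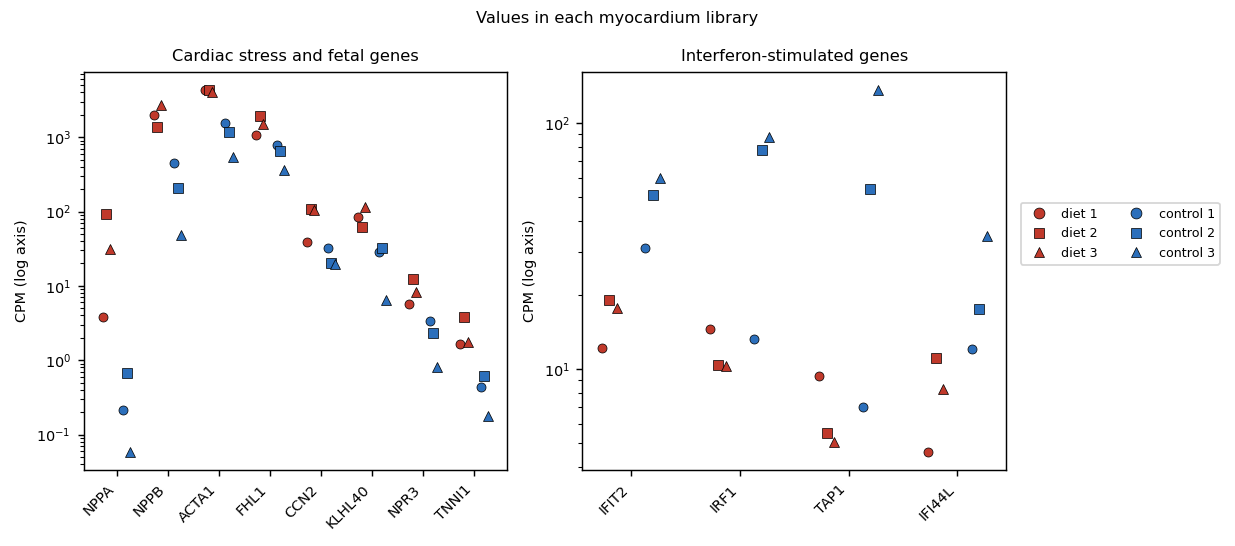
CPM on a log axis in each myocardium library, red for diet and blue for control with 1 symbol per replicate, for 8 stress and fetal genes and 4 interferon-stimulated genes. All diet symbols lie above all control symbols for the 8 stress genes shown, as in 10 of the 22 members tested. For IRF1 and TAP1 control replicate 1 lies among the diet hearts while controls 2 and 3 lie at 53.9 CPM or more.

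Interferon-stimulated genes stood lower on diet, with large differences between the control animals. Of 26 tested, 25 were below 0 and 14 had an unadjusted p under 0.05 in that direction (4.83% of all genes). In edgeR 0 passed the adjusted threshold, and in DESeq2 3 did, all lower (0.955% of all genes). IFIT2, an antiviral effector, stood at 12.2, 19.1 and 17.7 CPM on diet and 31.03, 51.2 and 59.7 CPM in controls (-1.41 ± 0.24, edgeR adjusted p = 0.107), and its groups did not overlap. IFI44L, another interferon-induced gene, stood at -1.29 ± 0.38.

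IRF1, an interferon-gamma response factor, stood at 14.6, 10.4 and 10.3 CPM on diet and 13.3, 77.8 and 88.2 CPM in controls (-2.16 ± 0.60). TAP1, the peptide transporter of antigen presentation, stood at 9.41, 5.50 and 5.04 CPM on diet and 7.02, 53.9 and 136 CPM in controls (-3.06 ± 0.86). In both, control replicate 1 lay among the diet hearts and the other 2 controls 5-fold or more above. B2M, the light chain of MHC class I, stood at 117, 64.8 and 66.6 CPM on diet and 82.3, 149 and 978 CPM in controls, so that 1 control held most of its difference.

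The group median thus depended on which controls were in the fit. Without control replicate 3, the library that stood apart, the median of the 26 interferon genes was -0.52, with 24 below 0. Without control replicate 1, IRF1 (edgeR adjusted p = 0.0209) and TAP1 (edgeR adjusted p = 0.0298) passed the threshold and fell on diet. T, B and NK cell genes summed to 13.3 to 27.9 CPM on diet and 16.8 to 45.7 CPM in controls, highest in control replicate 3, and their part in the interferon values was not tested.

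Macrophage genes stood higher on diet. Of 19 tested, 18 were above 0 with a median of 0.79, and 8 had an unadjusted p under 0.05, all higher (4.01% of all genes). In edgeR 0 passed, and in DESeq2 5 did, all higher (0.955% of all genes). LYVE1, a hyaluronan receptor of resident macrophages and lymphatic endothelium, stood at 6.52, 13.3 and 16.1 CPM on diet and 3.30, 3.29 and 5.58 CPM in controls (1.68 ± 0.33, edgeR adjusted p = 0.133). The mannose receptor MRC1 stood at 10.4, 27.6 and 32.5 CPM on diet and 4.44, 9.94 and 6.46 CPM in controls (1.84 ± 0.43). F13A1, coagulation factor XIII A, stood at 1.71 ± 0.34, VSIG4, a complement receptor, at 2.10 ± 0.55, and CD163, the haemoglobin scavenger receptor, at 2.17 ± 0.58. In all 5 the diet hearts lay above the controls, with diet replicate 1 the lowest of the 3. These 5 were named for an unadjusted p under 0.01, so the gap is no further support. Of the 19 tested, 6 had every diet heart above every control (3.74% of all genes).

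CD68, a lysosomal protein, stood at 6.18, 4.30 and 7.10 CPM on diet and 2.72, 4.63 and 5.46 CPM in controls (0.61 ± 0.33), with overlapping groups. The 22 macrophage genes in the table summed to 303 to 364 CPM on diet and 160.0 to 329.8 CPM in controls, and TIMD4, a marker of embryo-derived macrophages, was at 0 throughout.

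Genes of lipid-laden macrophages stood higher in part. Of 13 tested, 9 were above 0 with a median of 0.39. At an unadjusted p under 0.05, 4 were higher and 0 lower (4.01% and 4.83% of all genes). In edgeR 0 passed, and DESeq2 called 3 higher and 0 lower (0.955% of all genes each). GPNMB, a lysosomal glycoprotein of foam cells, stood at 3.06, 3.67 and 8.28 CPM on diet and 0.143, 0.269 and 0.0588 CPM in controls (5.05 ± 0.65, edgeR adjusted p = 0.0544). SPP1, osteopontin, stood at 4.62, 10.4 and 26.6 CPM on diet and 0.358, 1.41 and 3.70 CPM in controls (3.05 ± 0.78, edgeR adjusted p = 0.24). Both were scarce in control hearts, and each diet heart exceeded each control. Neither would have passed the count filter on the control hearts alone, so both were tested only through the diet hearts. PLIN2, the lipid droplet coat protein, stood at 88.2, 96.7 and 29.5 CPM on diet and 20.1, 35.2 and 28.03 CPM in controls (1.502 ± 0.45), while CD36, a fatty acid receptor that cardiomyocytes also express, stood at 0.40 ± 0.30.

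The matrix genes diverged. Of 40 tested, 22 were above 0 with a median of 0.12. At an unadjusted p under 0.05, 11 were higher and 5 lower (4.01% and 4.83% of all genes). In edgeR 0 passed, and DESeq2 called 5 higher and 4 lower (0.955% of all genes each). COL3A1, the fibrillar collagen of compliant tissue, stood at 146, 292 and 181 CPM on diet and 709, 907 and 911 CPM in controls (-1.93 ± 0.28, edgeR adjusted p = 0.0798). The highest diet heart was far below the lowest control. SPARC, a collagen-binding matricellular protein, stood at 278, 278 and 197 CPM on diet and 751, 696 and 1108 CPM in controls (-1.61 ± 0.27), and COL15A1, a collagen of basement membranes, at 81.6, 149.7 and 71.2 CPM on diet and 340.5, 305 and 358 CPM in controls (-1.62 ± 0.28).

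COL1A2 stood at -0.99 ± 0.27, the collagen chaperone SERPINH1 at -0.81 ± 0.21 and the gelatinase MMP2 at -0.97 ± 0.26, but COL1A1, the other chain of type I collagen, at -0.29 ± 0.30 with overlapping groups. Others stood higher. TNC, tenascin C, stood at 10.5, 30.8 and 31.3 CPM on diet and 1.15, 6.31 and 5.23 CPM in controls (2.61 ± 0.59, edgeR adjusted p = 0.18). BGN, the proteoglycan biglycan, stood at 119, 124 and 118 CPM on diet and 66.5, 76.7 and 66.8 CPM in controls (0.91 ± 0.20).

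FBLN1, fibulin 1, stood at 0.94 ± 0.23, LTBP2, a latent TGF-beta binding protein, at 1.68 ± 0.42 and MFAP5, a microfibril glycoprotein, at 0.90 ± 0.22. POSTN, periostin of activated fibroblasts, stood at 10.4, 27.8 and 39.6 CPM on diet and 0.502, 22.2 and 3.35 CPM in controls (1.63 ± 1.03), with overlap. Among TGF-beta response genes, SMAD7, the inhibitory SMAD, stood at 19.6, 19.1 and 17.4 CPM on diet and 8.96, 8.86 and 9.99 CPM in controls (1.15 ± 0.20, edgeR adjusted p = 0.107), and TGFBI at 1.014 ± 0.25.

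**Figure D5:**
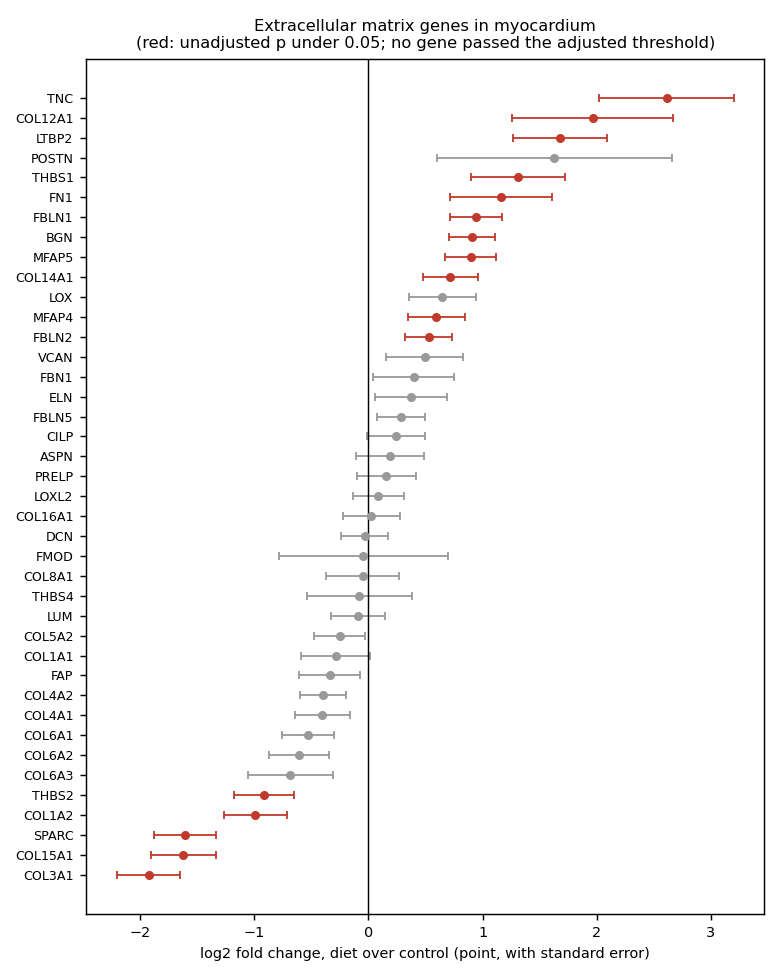
Log2 fold change (diet over control) with its standard error for the 40 matrix genes tested, ordered by value; red marks an unadjusted p under 0.05. COL3A1 (-1.93), COL15A1 (-1.62) and SPARC (-1.61) lie at the lower end and TNC (2.61) at the upper, with COL1A1 (-0.29) near 0.

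The fibroblast markers in the table, which include COL3A1, COL1A1 and COL1A2, summed to 2116 to 3126 CPM on diet and 3377 to 4076 CPM in controls. Of 15 tested, 12 were below 0 with a median of -0.21. At an unadjusted p under 0.05, 2 were higher and 2 lower (4.01% and 4.83% of all genes). In edgeR 0 passed, and DESeq2 called 2 in each direction (0.955% of all genes each). PDGFRA, the alpha receptor for PDGF, stood at -0.05 ± 0.24, DCN, decorin, at -0.03 ± 0.21 and DDR2, a collagen receptor, at -0.43 ± 0.21, while PI16, a marker of adventitial fibroblasts, stood at 187, 220.2 and 176 CPM on diet and 128, 126 and 126 CPM in controls (0.74 ± 0.20). Across the 17 summed marker and composition levels the exact two-sided permutation test of 3 against 3 cannot go below 0.1, which 3 sums reached (fibroblast; neutrophil and mast cell; smooth muscle and pericyte), with an adjusted p of 0.567.

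Endothelial genes went both ways. Of 21 tested, 13 were below 0 with a median of -0.38, which was -0.08 without control replicate 3. At an unadjusted p under 0.05, 2 were higher and 5 lower (4.01% and 4.83% of all genes). In edgeR 0 passed, and DESeq2 called 2 higher and 0 lower (0.955% of all genes each). CDH5, the endothelial cadherin, stood at 102, 123 and 100.2 CPM on diet and 212, 161 and 211 CPM in controls (-0.72 ± 0.20, edgeR adjusted p = 0.3). VWF, von Willebrand factor, stood the other way, at 233, 353 and 349 CPM on diet and 183, 179 and 252 CPM in controls (0.73 ± 0.21). From other lists, APLNR, the apelin receptor of capillary and venous endothelium, stood at 15.2, 26.04 and 7.66 CPM on diet and 118, 54.6 and 140.5 CPM in controls (-2.55 ± 0.47, edgeR adjusted p = 0.114). CCL21, a chemokine of lymphatic endothelium, stood at 3.69, 2.82 and 1.87 CPM on diet and 10.5, 12.1 and 18.9 CPM in controls (-2.13 ± 0.34).

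Of 14 smooth muscle and pericyte genes, 12 were below 0 with a median of -0.44, and the sign turned to 0.18 without control replicate 3. Their summed level was higher on diet, at 3507 to 3657 CPM against 2970 to 3034 CPM in controls, and DES, desmin, which cardiomyocytes share, made up most of it in 5 of 6 libraries, with 2737, 2067 and 2601 CPM on diet and 1747, 1855 and 613 CPM in controls.

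The median of the sterol synthesis genes lay near that of all genes. Of the 25 genes of cholesterol synthesis and its control tested, 18 were below 0 with a median of -0.08. In CPM, 9 of the 25 had every diet heart below every control (11.4% of all genes). For 0 of them was every diet heart above (3.74% of all genes). In edgeR 0 passed the adjusted threshold and in DESeq2 1 did, and 1 had an unadjusted p under 0.05.

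LXR targets stood on the other side. Of 19 tested, 17 were above 0 with a median of 0.21, and 4 had an unadjusted p under 0.05, all higher (4.01% of all genes). ABCA1, the sterol exporter to apolipoprotein A-I, stood at 34.3, 64.4 and 81.2 CPM on diet and 31.7, 30.2 and 29.6 CPM in controls (1.07 ± 0.27, edgeR adjusted p = 0.237), and diet replicate 1 lay only just above the controls. ABCG1, the exporter to HDL, stood at 14.8, 17.5 and 26.8 CPM on diet and 12.9, 6.31 and 5.70 CPM in controls (1.34 ± 0.39). SREBF1, the lipogenic transcription factor, stood at 1.00 ± 0.29, and 0 members passed in edgeR and 1 in DESeq2, higher (0.955% of all genes).

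Vitamin D, calcium and phosphate genes included the only list members past the threshold, IGFBP3 and LRP2, 2 of 13 tested, against 0.0848% of all genes. LRP2, at 0.269 to 0.353 CPM in control hearts, entered the tested set only through the diet hearts. The lists were also chosen with earlier results of these data known, so this share is no test of the list. IGFBP3 and LRP2 both lost the call without single animals (edgeR adjusted p up to 0.116 for IGFBP3 and 0.13 for LRP2). VDR, the receptor itself, stood at 3.06, 1.06 and 0.56 CPM on diet and 6.95, 5.17 and 2.00 CPM in controls (-1.42 ± 0.74, edgeR adjusted p = 0.674), with overlap. The median of the 13 was 0.18. CYP24A1, the vitamin D-degrading enzyme that the receptor induces, matched by its RefSeq gene number, had no count in any of the 6 libraries, which allows up to 0.215 CPM (3 counts) in the shallowest. Of mineralisation genes, 16 were tested, with a median of -0.08: SOX9, the cartilage transcription factor, stood at 1.92 ± 0.46, MGP, matrix Gla protein, an inhibitor of calcification, at 151, 153 and 150 CPM on diet and 110.1, 147 and 378 CPM in controls (-0.30 ± 0.39), and ALPL, alkaline phosphatase, at -0.02 ± 0.39.

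Glucocorticoid response genes stood higher in part. FKBP5, a co-chaperone that glucocorticoids induce, stood at 131, 60.0 and 95.7 CPM on diet and 13.6, 22.2 and 14.1 CPM in controls (2.68 ± 0.40, edgeR adjusted p = 0.0966). CDKN1A, the cell cycle inhibitor p21, stood at 47.6, 36.5 and 69.9 CPM on diet and 12.3, 18.8 and 11.8 CPM in controls (1.97 ± 0.33, edgeR adjusted p = 0.107). HIF3A stood at 2.01 ± 0.49, ZBTB16, a zinc finger transcription factor, at 1.29 ± 0.33 and PER1, a clock gene with glucocorticoid response elements, at 1.21 ± 0.33. Of 17 glucocorticoid response genes tested, 14 were above 0 with a median of 0.41, and 6 were higher at an unadjusted p under 0.05 (4.01% of all genes). In edgeR 0 passed, and in DESeq2 5 did, all higher (0.955% of all genes).

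The classical members TSC22D3, at 0.27 ± 0.20, and SGK1, at -0.02 ± 0.33, were near 0. The 19 clock genes tested had a median of 0.01, with 10 above 0. At an unadjusted p under 0.05, 2 were higher and 4 lower (4.01% and 4.83% of all genes). In edgeR 0 passed, and DESeq2 called 1 higher and 2 lower (0.955% of all genes each). The clock repressor NR1D1 averaged 24.5 ± 6.07 CPM on diet and 63.1 ± 9.87 CPM in controls (SD, n = 3 each), with no overlap (-1.21 ± 0.27, edgeR adjusted p = 0.18), NR1D2 at -0.75 ± 0.21 and DBP, listed as LOC127486976, at -1.36 ± 0.40, while BMAL1 stood at 0.01 ± 0.40. Immediate early genes had a median of 0.44, with 17 of 21 above 0, IER3 at 1.42 ± 0.28, EGR1 at 1.10 ± 0.26 and ATF3 at 2.04 ± 0.54.

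Energy metabolism showed little. Of 27 genes of fatty acid oxidation, 19 were above 0 with a median of 0.14, and CPT1B, the muscle carnitine palmitoyltransferase, stood at 0.07 ± 0.34. PDK4, which spares glucose by blocking pyruvate dehydrogenase, stood at 726, 622 and 119.7 CPM on diet and 32.5, 329.6 and 217 CPM in controls (1.51 ± 0.86, edgeR adjusted p = 0.722), and its groups overlapped. Of 49 genes of oxidative phosphorylation, 35 were below 0 with a median of -0.13. SLC16A1, the lactate and ketone transporter MCT1, stood at 100.1, 91.3 and 185 CPM on diet and 35.97, 35.3 and 45.5 CPM in controls (1.83 ± 0.29, edgeR adjusted p = 0.107), with a wide gap between the groups. HK2, the inducible hexokinase, stood at 1.75 ± 0.51, and the antioxidant enzyme GPX3 at 225, 167 and 272.5 CPM on diet and 82.1, 65.9 and 101 CPM in controls (1.57 ± 0.27, edgeR adjusted p = 0.107).

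The diet effect in myocardium was set against that in the valve after 7 weeks, in 1 joint fit of the 6 myocardium and 16 valve libraries. The difference of the effects passed the threshold for 106 of 16581 genes (0.639%). The count was 5 without diet replicate 3, 25 without diet replicate 2, 15 without control replicate 3 and 176 without control replicate 1. PCOLCE2 differed most clearly, by 2.02 ± 0.24 (log2, edgeR adjusted p = 0.000848): it had 21.9 to 27.6 CPM in diet hearts and 9.60 to 12.8 CPM in control hearts, but 248 to 360 CPM in 7-week valves and 375 to 565 CPM in control valves. NOS2, inducible nitric oxide synthase, differed by -3.60 ± 0.49 (edgeR adjusted p = 0.00319), at 1.85 to 3.81 CPM in diet hearts and 4.90 to 10.9 CPM in control hearts, against 12.2 to 20.6 CPM in 7-week valves and 2.88 to 4.202 CPM in control valves. In both genes the tissues differed in direction.

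MFNG, a fringe glycosyltransferase that modifies Notch, differed by -2.43 ± 0.34, ADAMTS8, a secreted metalloprotease, by 2.47 ± 0.35 and FIBIN by 1.96 ± 0.30. COL3A1 differed by -2.30 ± 0.51 (edgeR adjusted p = 0.0407), with 1265 to 6263 CPM in 7-week valves and 2213 to 3803 CPM in control valves, and PDGFRL by -1.51 ± 0.35 (edgeR adjusted p = 0.0497). IGFBP3 and LRP2 did not pass this test, at 1.43 ± 0.77 (edgeR adjusted p = 0.389) for IGFBP3 and 1.74 ± 0.90 (edgeR adjusted p = 0.366) for LRP2. The 5 animals with libraries in both tissues were treated as independent. Both COL3A1 and PDGFRL lost the call with the 8 valve libraries of 7 weeks and control alone.

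Against the ascending aorta, with 2 diet and 3 control libraries, 34 of 15755 genes differed (0.216%), or 20 without diet replicate 3, 22 without control replicate 2 and 69 without control replicate 3 of the myocardium. COL3A1 (-2.28 ± 0.39, edgeR adjusted p = 0.0486) and PDGFRL (-2.16 ± 0.21, edgeR adjusted p = 0.00225) were among them. LRP2 was too low in the aorta to be tested there and entered the joint fit only through the diet hearts, so its difference is given as levels alone: it had 0.382 and 0.448 CPM in diet aortas and 0.243 to 0.521 CPM in control aortas, below every diet heart. Among the genes of lowest p with a symbol were PGAM2, muscle phosphoglycerate mutase, NKX2-5, the cardiac homeobox factor, RNF207 and COBL, beside PDGFRL.

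In CPM, diet hearts lay below control hearts in PGAM2, NKX2-5 and RNF207 and overlapped them in COBL. The log2 fold changes in myocardium were -0.78 ± 0.26 for PGAM2, -0.28 ± 0.21 for NKX2-5, -0.49 ± 0.24 for RNF207 and -0.10 ± 0.18 for COBL. None of these was called there. In diet aortas NKX2-5 stood at 2.87 and 3.26 CPM against 0.174 to 0.405 CPM in control aortas. MYH6 had 577 and 647 CPM in the diet aortas and 0.564 to 0.939 CPM in control aortas. The part of heart muscle carried into those aorta samples was not tested. IGFBP3 had 19.1 and 19.2 CPM in diet aortas and 3.85 to 14.9 CPM in control aortas.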

How the data were processed

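Bulk RNA of left ventricular myocardium was sequenced with a directional kit (NEBNext Ultra II) as single-end reads, per the labels' protocols. The authors deposited expected counts per gene, and the submitters' processing notes name edgeR 3.42.4, FastQC 0.11.9, RSEM 1.3.3, STAR 2.7.8a and Trim Galore 0.6.6. No source used here gives the genome build, the annotation or the strand setting of counting, so reads of antisense partners may be included. Of the myocardium values 9.54% were not whole, and all were rounded before testing. Totals were 13954438 to 17322373 counts per library, which limits precision for genes of few CPM.

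Genes were filtered with filterByExpr (minimum count 10, minimum total 15), scaled by TMM and tested two-sided with the quasi-likelihood F test of edgeR 4.0.16 (R 4.3.3) and Benjamini-Hochberg adjustment at 0.05; limma 3.58.1 and DESeq2 1.42.0 served as alternatives. The SE is the log2 fold change divided by the root of F. CPM uses the library total, and the floor of 3 counts for a count of 0 covers counting error only. RLE scaling, library totals, other filters, leaving out single animals and a replicate block were also run. On simulated counts the fit was tested for recovery of known changes. The share of rows without a gene name in the RefSeq table (KEF51 identifiers, 37 rows) was 21.5% to 24.8% of counts on diet and 22.8% to 25.9% in controls.

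Named were called genes with a symbol, a mean of 5 CPM and groups that do not overlap, called list members, 21 genes whatever their result, the 12 genes with a symbol, a mean of 5 CPM and the lowest p-values, and for each tissue difference the 5 such genes of lowest p; list members with an unadjusted p under 0.01, the LOC genes and other list members were named after their values were seen. List members and all lists were chosen with earlier results of these data known. Of 1059 list entries, 938 matched the table by symbol and 42 by the gene number RefSeq (mOryCun1.1) pairs with the symbol; 79 did not match, and the lists of mitochondrially encoded and skeletal muscle genes had no member tested. Replicate numbers name different animals, so the samples were treated as unpaired. Results for some of the 21 genes and of the other list members are not reported here.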

Additional observations from a re-analysis of the deposited data

Results flagged for a closer look

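Among the 7-week valves, where 4 values allow a test of a single far value by Dixon's criterion, the animal without a myocardium library stood apart for LOC103346281 (48.55 CPM), LOC127486640 (39.07 CPM) and LOC127489834 (8.526 CPM), and the valve of the animal of diet replicate 2 for LOC108177974 (8.015 CPM, against 9.87 to 10.1 CPM in the others). Among control valves, replicate 1 stood apart for IGFBP3 (88.24 CPM) and LOC127492764 (13.06 CPM). Chance alone gives such a value in about 1 of 20 groups.

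The diet effect differed between myocardium and 7-week valve, by a test of the difference itself, for PCOLCE2 (2.02 on the log2 scale), NOS2 (-3.60), MFNG (-2.43), ADAMTS8 (2.47), FIBIN (1.96), PDGFRL (-1.51) and COL3A1 (-2.30). It differed between myocardium and ascending aorta for PGAM2 (-3.95), NKX2-5 (-3.78), PDGFRL (-2.16), RNF207 (-4.32), COBL (-2.52), COL3A1 (-2.28), LOC108177974 (-5.79), LOC103346281 (-7.69), LOC127486640 (-1.74) and LOC127489834 (-4.16). MYH6 (-12.86) and LOC127487650 (10.78) also passed, but both had a group near or at 0. MYH6 was at 0.564 to 0.939 CPM in control aortas and LOC127487650 at 0 in control hearts. These fitted sizes depend on the prior count. The sizes for NKX2-5, RNF207 and COBL carry the same limit, at 0.174 to 0.869 CPM in control aortas. So does the size for LOC103346281, at 0.0622 to 0.495 CPM in diet hearts. For PGAM2, NKX2-5, RNF207 and COBL most of the difference lay in the aorta. Their log2 fold changes were 2.41 to 3.83 there and -0.78 to -0.095 in myocardium, where none was called. The part of heart muscle carried into the diet aortas was not tested. LRP2 (3.90) passed as well, but it was too low in the aorta to be tested there and entered the fit only through the diet hearts.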

How the results depend on the processing

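RLE scaling, library totals, a minimum count of 50, limma-voom and removal of ribosomal and KEF51 features each kept the number of genes past the threshold in myocardium within 1.5 times of 12; library totals moved the median of all genes to -0.139. Without a filter 76 genes passed, with DESeq2 302, without control replicate 3 and diet replicate 1 (chosen after seeing the data) 22, and without single animals 1 to 36. With the replicate number as a block 16 genes passed, 7 of the 12 among them; the numbers name different animals, and 1 of 6 libraries deviated most like its own number in the other group. The difference from the 7-week valve counted 493 genes with DESeq2, 7 with the replicate block, 68 with 8 valve libraries, 183 with limma-voom and the animal as a block, and 5 to 176 without single animals, against 106. The difference from the aorta counted 225 with DESeq2, 1 with the replicate block and 20 to 69 without single animals, against 34. The cause of these moves was not tested. Smooth muscle genes summed to 593 CPM more on diet, and to 673 CPM more without RN18S in the total. Signs turned for CPT1B (log2 -0.043 with library totals, -0.28 without the 2 libraries, -0.14 to 0.33 without single animals), MGP (0.21 without the 2 libraries, -0.57 to 0.29 without single animals), RYR2 (-0.31 to 0.19) and PLN (-0.20 to 0.56). Mitochondrially encoded genes could not be named in the table, so the alternative total leaves out RN18S only.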
